A study of Mus musculus with 14 samples.

Results

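Oligodendrocytes, the glial cells that wrap axons in myelin, were sorted from whole mouse brains after saline or morphine, and their RNA was sequenced in bulk. These libraries make up 6 of the 14 samples of the series and were chosen by their labels: 3 mock and 3 morphine libraries of a single count table, compared across all genes. All came from male C57BL/6 mice of 70 days. Mock mice received saline and morphine mice morphine sulfate, both by injection into the peritoneum; the labels give neither the dose nor the time between injection and collection. Brains were dissociated with papain, the cells were immunostained and sorted by flow cytometry, and the RNA was amplified before sequencing; the antibody used for the sort is not named in the labels. Nothing in the labels says that brains were pooled, or that the 3 libraries of a group came from separate mice, so p-values measure the spread between these libraries.

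Reads in genes numbered 14989118 to 23456702 a library. Levels are given in CPM, counts per 1000000 reads in genes. Mbp and Mog, markers of mature oligodendrocytes that encode myelin proteins, stood at 3911 ± 161 and 784 ± 24.8 CPM in mock and at 4082 ± 45.3 and 834 ± 19.4 CPM in morphine libraries (mean ± SD, n = 3 each). Of 12 markers of mature oligodendrocytes, 1 was called higher, Mobp, and 4 lower, Aspa, Ermn, Opalin and Ugt8a, by 0.20 to 0.53 on the log2 scale; Ugt8a lost its call without mock library 1 and without morphine library 2 (edgeR adjusted p = 0.0666 and 0.0564). By comparison, 12 neuronal markers summed to 119 to 145 CPM over the mock libraries and 192 to 208 over the morphine libraries. That rise lay in Tubb3, the 1 neuronal marker called higher, and the median log2 fold change of the 12 was -0.15. The 12 microglial markers summed to 64.1 to 74.1 and 64.2 to 66.7 CPM. Astrocyte markers summed to 651 to 780.1 and 678 to 759 CPM and endothelial markers to 78 to 84 and 49.6 to 65.5 CPM, so the preparations also held RNA of other cells. Mock library 2 had the fewest reads and stood apart from the other mock libraries along the second principal component, which held 19.3% of the variance, while the first, with 50.6%, separated mock from morphine. In bulk RNA, fewer cells of a type and less RNA per cell cannot be told apart.

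As background, glucocorticoid hormones reach the brain from the adrenal cortex and bind the glucocorticoid receptor, a transcription factor that then enters the nucleus and induces genes such as Fkbp5, Sgk1 and Per1. Molecular chaperones fold proteins in the cytosol, where the heat shock factor Hsf1 controls many of them, and in the endoplasmic reticulum, where the unfolded protein response does so through sensors that include Atf6 and the kinase Ern1, which activates Xbp1. Oligodendrocytes mature under transcription factors of the Sox, Olig and Nkx families and make myelin from a small set of abundant proteins and lipids.

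Morphine libraries differed from mock libraries in 2326 of 15759 genes tested (14.8%), where a gene was called when its Benjamini-Hochberg adjusted p from edgeR's quasi-likelihood test lay under 0.05. Of these, 1275 were called higher (8.09% of genes tested) and 1051 lower (6.67%). Most calls were small: 1239 (53.3%) changed by less than 1.5-fold, and the median log2 fold change was 0.62 among genes called higher and -0.49 among those called lower. The large changes were mostly rises, with 77 genes up and 20 down by at least 4-fold, and 20 up and 2 down by at least 8-fold. The mock and morphine values did not overlap in 4584 genes (29.1% of those tested), among them 2291 of the 2326 called. A call was more frequent at high levels, from 2.12% of genes under 1 CPM to 43.2% of those at 100 CPM or more. Of the called genes, 1506 (64.7%) were called in every fit with 1 library left out; without mock library 2 the counts were 1412 higher and 1287 lower. Whether the counting used strand is not given in the sources used here, and reads of a gene cannot then be told from those of an exon on the opposite strand; 70 of the genes named here have such an overlap, among them Cdkn1a, Lancl3, Aire, Pla2g3, Plin4, Mt2, Dusp1, Nkx2-2, Dll1, Notch1, Fbn2, Penk, Olig1 and Rtn4.

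**Figure D1:**
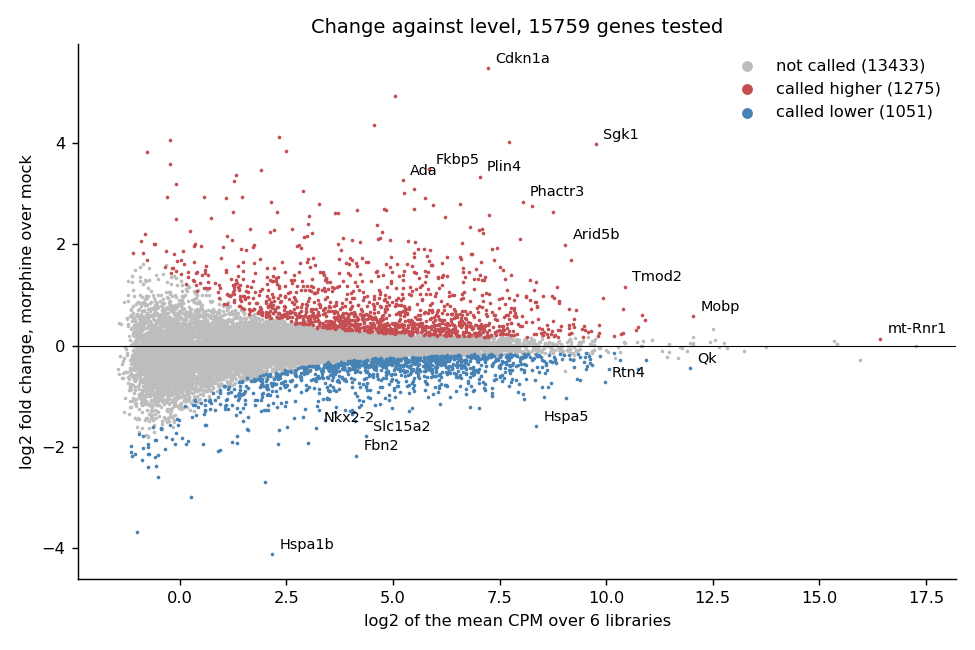
Log2 fold change, morphine over mock, against the log2 of the mean CPM over 6 libraries, 1 point per gene tested. Red points are the 1275 genes called higher and blue points the 1051 called lower; rises extend to 5.48 (Cdkn1a) and falls to -4.12 (Hspa1b).

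Many listed genes known to be induced by glucocorticoids were higher in morphine libraries. Of 18 transcription factors listed for this response, 13 were called higher and 0 lower, beside 8.09% and 6.67% of all genes tested. Their median log2 fold change was 0.66, against -0.02 over all genes tested. As for all lists here, members were chosen with earlier results of these data known, so the counts are not an independent test. Hif3a, a factor of the hypoxia pathway, stood at 17, 6.11 and 14 CPM in mock libraries 1, 2 and 3 and at 89.6, 101 and 97.8 CPM in morphine libraries 1, 2 and 3. Mock library 2 was the lowest, and even the highest mock value lay far under the lowest morphine value (log2 2.92, SE 0.171, edgeR adjusted p = 4.94e-11). Zbtb16, a zinc finger repressor, had 94.9, 59.6 and 82.1 CPM in mock and 519, 554 and 524 CPM in morphine libraries, again with mock 2 lowest and no overlap (log2 2.75, SE 0.104). Klf15, Klf9 and Klf13, zinc finger factors of the Kruppel-like family, rose by 1.74, 1.69 and 0.86 on the log2 scale. The other 10 Kruppel-like factors tested held no further rise, and Klf3 and Klf7 fell by 0.69 and 0.25. Arid5b, which encodes a DNA-binding partner of a histone demethylase, went from 211 ± 15.5 to 841 ± 50.6 CPM (SD, n = 3 each; log2 1.99, SE 0.0624). The clock gene Per1 had 41.3, 38 and 40.2 CPM in mock and 109, 102 and 103 CPM in morphine libraries, a spread within groups that was small beside the gap. Tsc22d3, which encodes the leucine zipper protein GILZ, rose by 0.45 (SE 0.075, edgeR adjusted p = 0.000155), less than most of the list. Among the 5 that did not pass the test, Irf1, Hes1, Tfcp2l1 and Foxo1 lay at log2 -0.53 to 0.06.

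Among 25 listed genes of signalling and metabolism that glucocorticoids induce, 18 were called higher, 16 of them by at least 2-fold, and 0 lower, with a median log2 fold change of 1.43. Cdkn1a (chr17:29090976-29100727, GRCm38), which encodes the cell cycle inhibitor p21, had 7.14, 5.51 and 6.84 CPM in mock and 278, 316 and 283 CPM in morphine libraries. The lowest morphine value lay far above the highest mock value, and the log2 fold change was 5.48 (SE 0.0898, edgeR adjusted p = 1.66e-19). Sgk1 (chr10:21882184-21999903), a kinase that regulates ion channels and transporters, had 109.7, 92.3 and 106 CPM in mock and 1578, 1712 and 1566 CPM in morphine libraries, and its relative Sgk3 went from 43.8 ± 1.92 to 263 ± 8 CPM. Fkbp5 (chr17:28399094-28517527), a co-chaperone that restrains the glucocorticoid receptor, had 10.2, 7.37 and 10.4 CPM in mock and 102, 111 and 103 CPM in morphine libraries. For all 3 of these genes the morphine libraries differed little among themselves. Map3k6, a kinase of the MAP kinase cascade, had 0.653, 0.929 and 0.371 CPM in mock and 3.91, 5.88 and 4.85 CPM in morphine libraries, so that its rise of 2.93 (SE 0.296) started from a level near the limit of detection. The metallothioneins Mt2 and Mt1, which bind zinc, rose by 1.44 (SE 0.166) and 1.01 (SE 0.0699). Rgs2, Cables1, Glul, Gadd45b, Cdkn1c, Gadd45g and Angptl4 did not pass the test.

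The receptor itself was lower. Nr3c1, which encodes the glucocorticoid receptor, stood at 127, 133 and 127 CPM in mock and 103, 96.6 and 87.8 CPM in morphine libraries, which did not overlap (log2 -0.43, SE 0.064, edgeR adjusted p = 3.61e-05). Nr3c2, the mineralocorticoid receptor, which also binds corticosterone, did not pass the test (log2 -0.02, SE 0.135), nor did Hsd11b1, which regenerates active hormone in cells (log2 0.07, SE 0.291). Over 32 steroid and other nuclear receptors and their cofactors, 3 were called higher and 3 lower (5 lower with limma voom, with no scaling beyond library size or with the filter of 1 CPM). The share called in either direction, 18.8%, was near the 14.8% over all genes tested. The retinoid receptor gene Rxra rose by 0.69, while the clock repressor Nr1d2 fell by 0.33.

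Promoter sequence from RefSeq (GRCm38.p6), covering 250 bases before to 50 after the annotated start, matched 11138 of the genes tested. A full palindromic glucocorticoid element, searched on both strands as the half-sites AGAACA and TGTTCT with 3 bases between them, was found in 2 of these promoters (0.018%), and 1 of the 2 was that of Sgk1. That promoter (chr10:21993640-21993939, plus strand) is shown 5′ to 3′ because Sgk1 had one of the largest rises; capitals mark the half-sites, the match lying at bases -189 to -175 from the start.
Sgk1: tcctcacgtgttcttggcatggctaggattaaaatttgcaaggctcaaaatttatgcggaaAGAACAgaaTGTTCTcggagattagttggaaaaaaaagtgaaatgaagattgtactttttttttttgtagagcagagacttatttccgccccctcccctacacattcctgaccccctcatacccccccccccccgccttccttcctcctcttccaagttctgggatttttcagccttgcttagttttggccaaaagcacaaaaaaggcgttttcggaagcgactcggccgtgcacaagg
The single half-site AGAACA, on either strand, was in 15.7% of all promoters and in 15.5% of those of genes called higher, 13.8% of those at least 2-fold higher and 14.8% of those called lower, so its share did not set the raised genes apart in this window. A match is a stretch of letters, not a measured binding site.

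**Figure D2:**
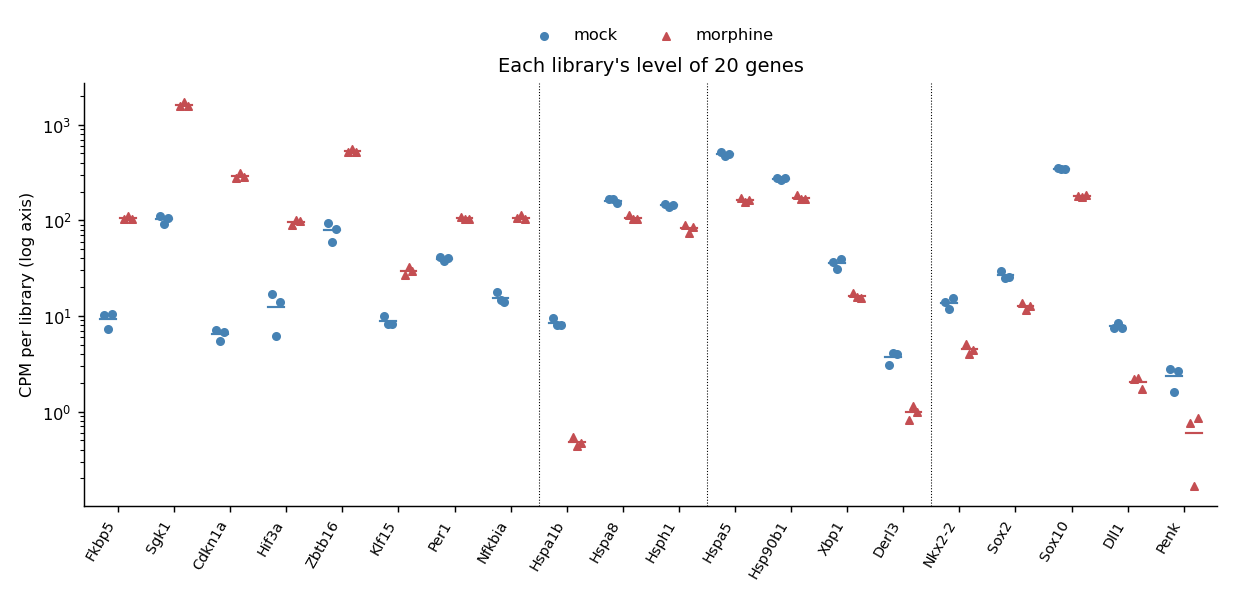
CPM in each library on a log axis for 20 genes, with mock libraries as blue circles, morphine libraries as red triangles and group means as short lines. Dotted lines separate, from left to right, glucocorticoid-induced genes, cytosolic chaperones, genes of the endoplasmic reticulum, and transcription factors and signals. All 20 were picked from the called genes, and the groups do not overlap in any of them. The same held for 2291 of the 2326 called genes and 29.1% of all genes tested.

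The rises of largest size reached beyond the glucocorticoid lists. Among genes with a mean of at least 5 CPM that stayed called with any single library left out, the 15 largest rises were those of Cdkn1a, Sh2b2, Zfand4, Tma16, Aire, Sgk1, Lancl3, Fkbp5, Plin4, Ada, Pla2g3, Dmrta1, Arrdc2, Hif3a and Phactr3. Sh2b2, an adaptor of insulin receptor signalling, had 2.75, 1.53 and 1.8 CPM in mock and 60.6, 64.1 and 67.3 CPM in morphine libraries (log2 4.94, SE 0.128). Tma16, a ribosome biogenesis factor, had 23.7, 27.5 and 22.9 CPM in mock and 384, 424 and 383 CPM in morphine libraries (log2 4.01, SE 0.0751). In both, every morphine library lay far above every mock library. Aire, a transcriptional regulator best known from the thymus, went from 0.56 ± 0.157 to 9.54 ± 2.88 CPM. Ada, adenosine deaminase, went from 6.91 ± 1.99 to 68 ± 3.92 CPM and Pla2g3, a secreted phospholipase A2, from 9.37 ± 1.41 to 81.2 ± 7.88 CPM. Arrdc2, a member of the alpha-arrestin family, rose by 3.00 and Zfand4, a zinc finger gene, by 4.35 on the log2 scale. Phactr3, which encodes an actin-binding regulator of protein phosphatase 1, had 64.8, 66.2 and 63.4 CPM in mock and 439.6, 508 and 444 CPM in morphine libraries. Of the 4 family members tested, Phactr4 rose by 1.50 and Phactr2 by 0.37 as well, and Phactr1 did not pass the test (log2 -0.10).

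The 15 largest falls chosen by the same rule were those of Fbn2, Gm26846, Slc15a2, Depdc7, Nkx2-2, Phlda1, Hspa5, Gm10863, Fgfrl1, Kdr, Eno4, Atp8b1, Sdf2l1, Bahcc1 and 5430435G22Rik, most of them smaller than the largest rises. Phlda1, a pleckstrin-homology protein that restrains growth factor signalling, had 8.26, 8.23 and 9.65 CPM in mock and 2.66, 2.25 and 3.53 CPM in morphine libraries (log2 -1.61, SE 0.174). Fgfrl1, a fibroblast growth factor receptor without a kinase domain, went from 15.7 ± 1.56 to 5.67 ± 0.0348 CPM and Atp8b1, a phospholipid flippase, from 23.5 ± 1.92 to 9.17 ± 1.15 CPM. Eno4, an enolase, fell by 1.40 and Depdc7 by 1.66 on the log2 scale.

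Cytosolic chaperones were lower in morphine libraries. Of 28 tested, 18 were called lower and 0 higher (64.3% called, beside 14.8% of all genes tested), with a median log2 fold change of -0.56. The list also holds Hspd1 and Hspe1, which encode chaperonins of the mitochondrion. The inducible Hsp70 gene Hspa1b had 9.42, 8.03 and 8 CPM in mock and 0.543, 0.439 and 0.468 CPM in morphine libraries (log2 -4.12, SE 0.226, edgeR adjusted p = 1.86e-11). Hspa1a, its near-identical neighbour, had 6.62, 4.98 and 9.17 and 1.41, 0.879 and 0.936 CPM; reads of the pair cannot be assigned to either gene with confidence, and both are low in all morphine libraries. Abundant chaperones moved less. Hsp90ab1, the constitutive cytosolic Hsp90, had 549, 498 and 523 CPM in mock and 327, 314 and 307 CPM in morphine libraries, and Hspa8, the constitutive Hsp70, 166, 166 and 151 and 114, 102 and 102 CPM. In each of these the groups were well separated, with falls of 0.73 (SE 0.054) and 0.60 (SE 0.0631) on the log2 scale. Hspa4l, an Hsp110-type exchange factor, fell by 1.01 (SE 0.0734) and Stip1, which links Hsp70 to Hsp90, by 0.95 (SE 0.0685). The co-chaperones of steroid receptors Fkbp4 and Ptges3 fell by 0.48 and 0.42, in contrast to the rise of Fkbp5. Dnajb1, Hspb8 and the factor Hsf1 did not pass the test (log2 -0.16, 0.16 and -0.13). All 8 subunits of the TRiC chaperonin, which folds actin and tubulin, had values under 0, at -0.26 to -0.03, and none was called; 2 were called lower without mock library 2 and with no scaling beyond library size, and 1 with the replicate block or the filter of 1 CPM.

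In the endoplasmic reticulum, folding factors were lower and the translocation machinery was not. Of 21 folding factors, 12 were called lower and 0 higher (57.1% called, beside 14.8% of all genes tested), with a median log2 fold change of -0.33. Hspa5 (chr2:34771970-34777547), which encodes the Hsp70 chaperone BiP, had 515, 470.1 and 496 CPM in mock and 173, 155 and 164 CPM in morphine libraries, far apart beside the spread within groups (log2 -1.59, SE 0.0581, edgeR adjusted p = 3.71e-14). Creld2, a reticulum protein of the unfolded protein response, had 22.7, 21.8 and 25.5 CPM in mock and 9.99, 9.45 and 9.7 CPM in morphine libraries. Sdf2l1, a partner of BiP, went from 17.6 ± 4.41 to 7.21 ± 0.592 CPM and Manf, a secreted factor of the same response, from 29.7 ± 2.13 to 14.6 ± 1.36 CPM. Calr, the lectin chaperone calreticulin, had 336, 265 and 329 CPM in mock and 192, 179.8 and 182 CPM in morphine libraries, while its membrane-bound relative Canx did not pass the test (log2 -0.00, SE 0.0567). P4hb, Ppib and Dnajb9 did not pass either, at log2 0.11, 0.60 and -0.01.

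Of 17 sensors and degradation factors of this compartment, 5 were called lower and 1 higher (35.3% called, beside 14.8% of all genes tested). Xbp1, the transcription factor of the unfolded protein response, had 36.8, 31.1 and 39.8 CPM in mock and 17.5, 15.8 and 15.5 CPM in morphine libraries (log2 -1.15, SE 0.0964). Derl3, a channel component of protein retrotranslocation, fell by 1.90 (SE 0.271) from 3.71 ± 0.589 CPM. The sensors Atf6, Ern1 and Eif2ak3 did not pass the test (log2 -0.00, 0.05 and -0.10). Herpud1, which takes part in degradation at the reticulum, rose by 0.78 (SE 0.0953). Of 24 components of the translocon, signal peptidase and oligosaccharyl transferase, 1 was called higher, Sec62, whose call was lost without morphine library 2 (edgeR adjusted p = 0.0502), and 1 lower, the peptidase subunit Sec11c, by 0.54 (2 lower without mock library 2). The third arm of the response was mixed: of 20 genes of the integrated stress response, 4 were higher and 2 lower (30% called). Ddit3, which encodes the factor CHOP, fell by 0.81 (SE 0.0955), while Gpt2, an alanine aminotransferase, rose by 1.02 (SE 0.0714) and Sesn2, a sensor of leucine, by 0.83. Atf4 did not pass the test (log2 -0.19, SE 0.0816). Of 20 cytosolic transfer RNA synthetases, 3 were called higher and 0 lower, a share of 15%, near the 14.8% called over all genes tested. Yars and Gars rose by 0.47 and 0.40. The third, Dars, kept its call in only 1 of the 6 fits that leave out a library, that without mock 2.

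Several promoters of these genes hold a known element. The endoplasmic reticulum stress element, searched on both strands as CCAAT and CCACG with 9 bases between them, was in 18 of 11138 promoters (0.162%). These included 7 of 17 folding factors with a promoter in the table (Hspa5, Hsp90b1, Calr, Canx, Pdia6, Dnajc3 and Creld2), as well as Derl3 and Syvn1. Of the 18 genes, 8 were called lower and 0 higher. Of the 7 folding factors, Canx alone was not called; Dnajc3 lost its call without mock library 1 (edgeR adjusted p = 0.0627). Promoters of 3 of them are shown 5′ to 3′ on the strand of the gene, with the letters of the match in capitals: Hspa5 at chr2:34771840-34772139 (plus strand, match at -65 to -47), Creld2 at chr15:88819396-88819695 (plus strand, match in the reverse orientation at -126 to -108) and Calr at chr8:84846882-84847181 (minus strand, match in the reverse orientation at -162 to -144).
Hspa5: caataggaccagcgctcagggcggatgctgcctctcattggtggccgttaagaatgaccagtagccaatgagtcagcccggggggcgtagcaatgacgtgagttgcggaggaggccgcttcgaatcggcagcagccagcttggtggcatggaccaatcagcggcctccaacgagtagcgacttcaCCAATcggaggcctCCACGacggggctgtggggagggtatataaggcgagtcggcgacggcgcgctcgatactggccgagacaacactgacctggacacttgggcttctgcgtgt
Creld2: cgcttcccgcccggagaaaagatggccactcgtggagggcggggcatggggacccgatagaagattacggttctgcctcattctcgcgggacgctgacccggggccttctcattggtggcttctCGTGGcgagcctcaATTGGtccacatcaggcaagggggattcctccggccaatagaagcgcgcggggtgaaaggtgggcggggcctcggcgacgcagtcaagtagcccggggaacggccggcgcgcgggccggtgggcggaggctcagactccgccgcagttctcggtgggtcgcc
Calr: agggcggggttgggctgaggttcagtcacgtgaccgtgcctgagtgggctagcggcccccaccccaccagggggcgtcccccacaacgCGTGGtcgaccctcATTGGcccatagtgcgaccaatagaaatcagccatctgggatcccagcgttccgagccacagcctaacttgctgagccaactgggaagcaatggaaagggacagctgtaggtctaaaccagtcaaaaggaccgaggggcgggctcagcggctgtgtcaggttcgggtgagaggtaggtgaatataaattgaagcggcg
A heat shock element was searched on both strands as GAA, TTC and GAA with 2 bases between each. It was in 68 promoters (0.611%). Among them were 5 of 23 on the list of cytosolic chaperones (Hsph1, Dnajb6, Hspd1, Hspe1 and Chordc1). Of these, Hspd1 and Hspe1 encode chaperonins of the mitochondrion. Of the 5 listed genes, Dnajb6 was not called and the other 4 fell, by 0.61 to 0.93 on the log2 scale. Over all 68 genes with the element, 9 were called lower and 3 higher, beside 6.67% and 8.09% of all genes tested. The element was in 0 of 101 promoters of genes at least 2-fold lower.

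**Figure D3:**
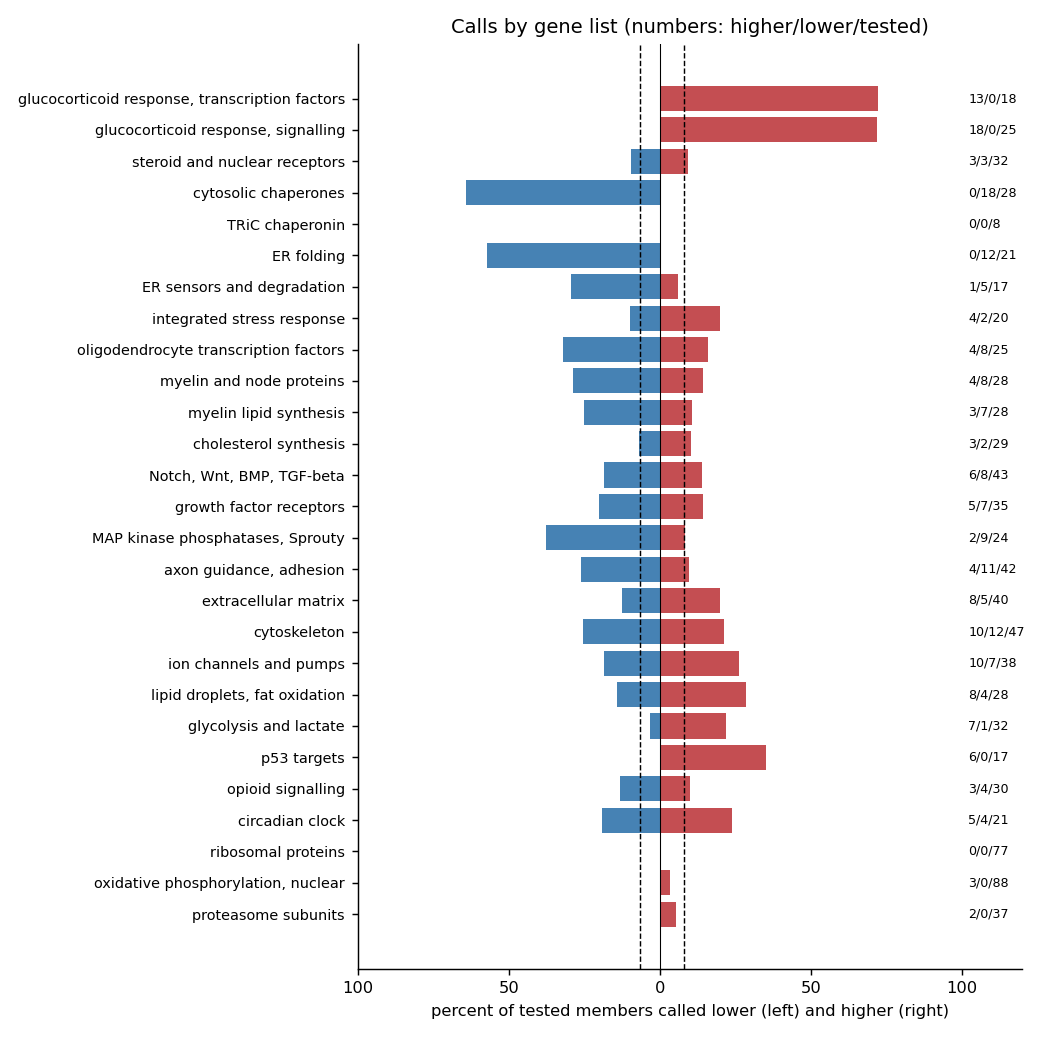
Percent of tested members called higher (red, to the right) and lower (blue, to the left) in 27 gene lists and families; the numbers give genes higher, lower and tested. Dashed lines mark the shares over all genes tested, 8.09% higher and 6.67% lower. The 2 glucocorticoid lists (72.2% and 72.0% called) and the 2 lists of folding factors (64.3% and 57.1%) extend farthest beyond them. All lists were chosen with earlier results of these data known.

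Several transcription factors of the oligodendrocyte lineage were lower. Of 25 listed, 8 were called lower and 4 higher (48% called, beside 14.8% of all genes tested). Nkx2-2, a homeodomain factor of the lineage, had 14, 11.9 and 15.4 CPM in mock and 5.1, 4.01 and 4.38 CPM in morphine libraries (log2 -1.62, SE 0.139, edgeR adjusted p = 1.82e-08). Sox10, which activates myelin genes, had 349, 348 and 342 CPM in mock and 180.3, 176 and 182 CPM in morphine libraries (log2 -0.95, SE 0.052). For both, every morphine library lay below every mock library. Sox2 and Sox9, factors of progenitors, fell by 1.09 (SE 0.101) and 0.77 (SE 0.135). Over the Sox family, 5 of 13 genes tested were lower, Sox13 and Sox12 being the others, and Sox8 was higher by 0.37. Tcf4, a helix-loop-helix factor, and Tcf7l2, a Wnt effector, fell by 0.53 and 0.50. Olig1 was higher, with 508, 449.7 and 527 CPM in mock and 739, 747 and 663 CPM in morphine libraries, while its relative Olig2 (log2 0.11, SE 0.0614) and Myrf (log2 0.09, SE 0.0506), the factor needed for myelination, did not pass the test.

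The main myelin proteins did not follow these factors. Mbp, Mag, Mog and Cnp had log2 fold changes between -0.03 and 0.09, and none was called. Other abundant members of the list moved. Mobp, a myelin-associated protein, was higher, with 3438, 3294 and 3390.2 CPM in mock and 5061, 5147 and 4959 CPM in morphine libraries (log2 0.58, SE 0.0421). Of 28 proteins of myelin and the node, 4 were called higher and 8 lower. That is 42.9% called, beside 14.8% of all genes tested and 43.2% of genes at 100 CPM or more. The 8 became 4 without mock library 3 or morphine library 2 and 5 without mock library 1 or morphine library 3 and with DESeq2. Tppp, which promotes microtubule polymerisation, had 846, 795 and 846 CPM in mock and 512, 529 and 514 CPM in morphine libraries (log2 -0.68, SE 0.0497), and Ermn, a cytoskeletal protein of the sheath, fell by 0.47. Gjb1, a connexin, and Opalin, a membrane protein of mature cells, fell by 0.36 and 0.31. Nfasc and Hapln2, proteins of the node and its matrix, rose by 0.36 and 0.39. Of 28 enzymes of myelin lipids, 3 were higher and 7 lower (35.7% called). Aspa, which frees acetate from N-acetylaspartate, fell by 0.53 (SE 0.0562) and the fatty acid elongase Elovl7 by 0.47, while Acaca, the first enzyme of fatty acid synthesis, rose by 0.77 (SE 0.0619). Of 29 genes of cholesterol synthesis and transport, 3 were higher (1 without morphine library 2) and 2 lower (5 without mock library 2, 1 without morphine library 2). This share of 17.2% was near the 14.8% called over all genes tested.

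Signals that act between cells changed in both directions. In 43 genes of the Notch, Wnt, BMP and TGF-beta pathways, 6 were called higher and 8 lower (32.6% called, beside 14.8% of all genes tested). The number lower was 5 without morphine library 1 and with DESeq2. Among ligands, the Notch ligand Dll1 had 7.56, 8.36 and 7.53 CPM in mock and 2.17, 2.25 and 1.7 CPM in morphine libraries, a fall of 1.94 (SE 0.178). Wnt3 rose from 16.9 ± 0.874 to 51.6 ± 4.17 CPM and Tgfb3 from 18.7 ± 1.09 to 37.2 ± 4.64 CPM. Of the receptors, Notch1 fell by 0.89 (SE 0.14) and the Wnt receptor Fzd7 rose by 1.27 (SE 0.0959). Apcdd1, an inhibitor of Wnt signalling at the cell surface, had the largest rise of the list, 1.89 (SE 0.121). Smad7, which inhibits TGF-beta and BMP signalling, rose by 0.65 (SE 0.0609).

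Of 35 growth factors and receptor kinases, 5 were called higher (3 without morphine library 3) and 7 lower. The share called was 34.3%, beside 14.8% of all genes tested. The neuregulin receptor gene Erbb3 had 150.0, 159.8 and 146 CPM in mock and 86.1, 75.5 and 82.3 CPM in morphine libraries (log2 -0.90, SE 0.0637), and its partner Erbb2 did not pass the test (log2 -0.14). Tyro3, a receptor kinase of the TAM family, fell by 0.61 and its relative Mertk rose by 0.69; the third member, Axl, was not called (log2 -0.13). Of the fibroblast growth factor receptors, Fgfr1 rose by 0.73 (SE 0.114) and Fgfr2 fell by 0.42 (SE 0.0538). Kdr and Flt1, receptors of the vascular growth factor, fell by 1.43 and 0.49. Both are also endothelial markers, of which 5 of 12 were called lower (3 without morphine library 1 and with DESeq2) and 0 higher, with the summed levels given above not overlapping between groups; the part of endothelial RNA in these falls was not tested. Of 24 feedback regulators of MAP kinase signalling, 9 were lower (5 with DESeq2) and 2 higher, 45.8% called. The phosphatases Dusp16 and Dusp8 fell by 0.61 and 0.45, and the 2 rises were of Dusp1, from 5.47 ± 1.21 to 15 ± 2.01 CPM, and of Errfi1, an inhibitor of the epidermal growth factor receptor, from 51 ± 4.88 to 179 ± 13.4 CPM. Both are also on the glucocorticoid list.

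Of 42 genes of axon guidance and adhesion, 11 were called lower, 4 higher and 27 not called, with a median log2 fold change of -0.07. The share called was 35.7%, beside 14.8% of all genes tested. Rtn4, which encodes the myelin-associated inhibitor Nogo, had 1272, 1170.3 and 1284 CPM in mock and 764, 749 and 755 CPM in morphine libraries (log2 -0.72, SE 0.0499). Its receptor gene Rtn4r was lower, from 1.45 ± 0.192 CPM, a call lost without mock library 3 and without morphine libraries 1 or 2 (edgeR adjusted p = 0.0808, 0.0924 and 0.111). Sema6d, a transmembrane semaphorin, had 474, 522 and 491 CPM in mock and 248, 237 and 252 CPM in morphine libraries, and Unc5c, a netrin receptor, rose by 0.94 (SE 0.0561). Of 40 matrix genes, 5 were lower and 8 higher (5 higher without mock library 3 or morphine library 2), 32.5% called. Fbn2, the microfibril protein fibrillin-2, had 25.6, 32.3 and 28.4 CPM in mock and 6.68, 6.54 and 5.92 CPM in morphine libraries, the largest fall among the genes of at least 5 CPM that stayed called without any single library (log2 -2.17, SE 0.112). Lamc1, a laminin chain, rose from 73 ± 2.22 to 191 ± 11.5 CPM while the chain Lamb1 fell from 4.75 ± 1.88 to 2.06 ± 0.242 CPM. Adamts4, an aggrecan-cleaving protease made by oligodendrocytes, fell by 0.66 (SE 0.0543).

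Of 47 genes of the cytoskeleton, 10 were called higher and 12 lower (46.8% called, beside 14.8% of all genes tested and 43.2% of those at 100 CPM or more). Tmod2, which caps actin filaments, had 919.5, 795 and 854 CPM in mock and 2011, 1860.5 and 1895 CPM in morphine libraries, and its rise of 1.17 (SE 0.0552) was one of the largest gains of CPM in the data. Tubb3, a beta-tubulin usually taken as a neuronal marker, had 42.4, 26.4 and 36.9 CPM in mock and 109.8, 122 and 126 CPM in morphine libraries. The other 11 neuronal markers held 0 genes called higher and 1 called lower, Snhg11, whose call was lost without mock libraries 1 or 3 and without morphine libraries 1 or 3. The microtubule proteins Map4 and Mapt fell by 0.47 and 0.33 and the small GTPase Rnd3 by 1.24, while Rab31, a GTPase of vesicle traffic, rose from 201 ± 12.5 to 430.5 ± 2.28 CPM and Sytl2, a Rab effector, fell by 0.92.

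Of 38 channels and pumps, 10 were called higher and 7 lower (44.7% called, beside 14.8% of all genes tested). Kcna1, a voltage-gated potassium channel subunit, had 999.7, 1019 and 993 CPM in mock and 1660.2, 1704 and 1642 CPM in morphine libraries (log2 0.73, SE 0.0457); its partner Kcna2 rose by 0.81 and the auxiliary subunit Kcnab1 by 0.80. Kcna6, of the same subfamily, fell by 0.64 and the background potassium channel Kcnk13 by 1.17. Kcnj2, an inward rectifier, fell by 0.73. Over 67 potassium channel genes, 8 were higher and 5 lower (19.4% called, beside 14.8% of all genes tested). Of 272 solute carriers tested, 22 were higher (8.09%, the share over all genes tested) and 9 lower (16 lower without mock library 2). Slc25a13, the mitochondrial aspartate-glutamate carrier, went from 17.7 ± 1.55 to 73.6 ± 2.09 CPM, and Slc39a14, a transporter of zinc and other metals, from 7.89 ± 1.73 to 25.2 ± 0.389 CPM. The largest fall was that of Slc15a2, a transporter of short peptides, with 37.8, 25.9 and 32.3 CPM in mock and 9.93, 8.13 and 9.75 CPM in morphine libraries. Of 15 genes of iron handling, Hfe, a regulator of iron uptake, was the only one called on all 6 libraries, with a rise of 1.96 (SE 0.172); 2 genes were called lower without mock library 2 and 2 higher without morphine library 3.

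Of 28 genes of lipid droplets and fat oxidation, 8 were called higher, 4 lower and 16 not called (42.9% called, beside 14.8% of all genes tested). The lipase gene Pnpla2, which starts the breakdown of stored triglyceride, had 26, 23.4 and 24.6 CPM in mock and 86, 102 and 88.9 CPM in morphine libraries (log2 1.90, SE 0.0777), and Lipe, the next lipase, rose by 1.38 (SE 0.09). Abhd5, the activator of the Pnpla2 lipase, fell by 0.40 (SE 0.0795). Plin4 and Plin5, coat proteins of lipid droplets, rose by 3.33 and 2.17, the latter from only 0.794 ± 0.168 CPM. Acsl3 and Acot1, which make and cleave acyl-CoA, fell by 0.49 and 0.64. In glycolysis and pyruvate use, 7 of 32 genes were higher (4 without morphine library 2), with 25% called in either direction. Pdk4, which inhibits pyruvate dehydrogenase, had 11.1, 10.6 and 12.9 CPM in mock and 46.2, 51.8 and 49.4 CPM in morphine libraries; its relative Pdk2 and the phosphofructokinase gene Pfkp rose by 0.43 and 0.61. The 1 gene called lower, Pdk1, lost its call without each library other than mock 1. Of 30 genes of insulin and FoxO signalling, 2 were higher (1 without morphine libraries 1 or 3 and with no scaling beyond library size) and 5 lower, among them Foxo6 (log2 -1.65), Deptor, an inhibitor of mTOR (log2 -1.01), and Irs1, the insulin receptor substrate (log2 -0.51).

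Of 15 cell cycle inhibitors, 4 were called higher and 2 lower (1 lower without any 1 library other than mock 2). Of 22 drivers of the cycle 1 was called, the transcription factor gene E2f3, which rose by 0.49. The shares called were 40% and 4.55%, beside 14.8% of all genes tested. Cdkn1a is also a target of p53, and 6 of 17 p53 targets were higher and 0 lower (35.3% called). Apart from Cdkn1a these rises were of Gadd45a (1.16), Sesn1 (1.10), Ccng1 (0.79), Mdm2 (0.35) and Plk3 (0.35), while Bax, Bbc3 and Zmat3 did not pass the test (log2 0.00, -0.26 and 0.01). Of 27 genes of apoptosis, 2 were higher (1 without mock library 3 or morphine libraries 2 or 3) and 0 lower (1 without mock library 1). Bcl2l1, which encodes the survival protein Bcl-xL, had 190.3, 144 and 182 CPM in mock and 419, 431 and 424 CPM in morphine libraries (log2 1.30, SE 0.0762), whereas Bcl2 and Mcl1 were not called (log2 -0.17 and -0.05). Nfkbia, the inhibitor of NF-kB, had 17.8, 14.7 and 14.2 CPM in mock and 105, 113 and 103 CPM in morphine libraries, and 5 of 23 genes of that pathway and of cytokine signalling were higher (3 without morphine libraries 1 or 2). The 1 gene called lower, Relb, lost its call whichever library was left out. Of 15 interferon-induced genes tested 0 were called (1 lower without mock library 3). Usp2, a deubiquitinase, rose by 1.37 (SE 0.0701) and Fbxo32, the ubiquitin ligase subunit atrogin-1, fell by 0.88 (SE 0.0719).

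Opioid receptors themselves were scarcely detected. Oprm1, the main receptor of morphine, had 1.49, 2.99 and 2.28 CPM in mock and 2.06, 1.92 and 1.53 CPM in morphine libraries and was not called (log2 -0.28, SE 0.297). Of 30 opioid signalling genes, 3 were higher and 4 lower (23.3% called, beside 14.8% of all genes tested). Penk, the precursor of enkephalins, had 2.75, 1.59 and 2.65 CPM in mock and 0.76, 0.165 and 0.851 CPM in morphine libraries, and Grk5, a kinase that desensitises receptors, fell by 1.17 (SE 0.283). Gnao1 and Adcy5, a G protein subunit and an adenylyl cyclase, rose by 0.42 and 0.41. Of 21 clock genes, 5 were higher and 4 lower (42.9% called). Besides Per1, the output factor Tef rose by 1.05, Nfil3 by 0.77, and Cry2 by 0.65. Clock and Bhlhe41 fell by 0.32 and 0.49, with Arntl not called (log2 -0.11). Of 20 immediate early genes, 2 were higher (1 without morphine library 1) and 3 lower, 25% called. Arc, an activity-induced gene, had 65.5, 53.8 and 63.2 CPM in mock and 27.7, 25.6 and 24.6 CPM in morphine libraries (log2 -1.23, SE 0.0827), and Fos and Egr1 did not pass the test (log2 0.30 and -0.19).

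Few genes of the basic machinery of the cell were called. None of 77 cytosolic ribosomal protein genes was called, and 3 of 88 nuclear genes of oxidative phosphorylation and 2 of 37 proteasome subunits were, all higher. The 1 gene of oxidative phosphorylation at least 2-fold higher, Cox6a2, lies within Itgad, and its reads cannot be told from those of Itgad here. Without mock library 2, 3 of the 77 ribosomal protein genes, 3 of the 88 and 2 of the 37 were called lower. Among 36 enzymes that modify histones or DNA, 8 were higher (5 without morphine library 2) and 7 lower (4 without mock libraries 1 or 3 or morphine library 2), the largest being a rise of the demethylase Kdm4a (0.83) and a fall of the deacetylase Hdac9 (0.81). The share of these enzymes called was 41.7%, beside 14.8% of all genes tested. Of 20 nuclear long noncoding RNAs, 4 were lower (2 without mock library 1, 7 without mock library 2) and 0 higher, 20% called. Sox2ot, whose introns contain Sox2, had 361, 352 and 369 CPM in mock and 179, 169 and 173 CPM in morphine libraries, and Neat1, the RNA of paraspeckles, fell by 0.46. Cirbp, a cold-inducible RNA-binding protein, rose by 1.08 (SE 0.115).

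Ranked by the difference in CPM, which is not corrected for gene length, genes of high level came first. Apart from mt-Rnr1, the summed level of genes called higher went from 80604 CPM in mock to 125051 CPM in morphine libraries, and that of genes called lower from 102420 to 76969 CPM. With mt-Rnr1 the sum of genes called higher went from 164490 to 217210 CPM. The direction of these sums is fixed, because the genes were selected by their change in these same libraries. The largest gains of CPM were of mt-Rnr1 (whose call was lost without mock library 3, without morphine libraries 1 or 2 and with DESeq2), Mobp, Sgk1, Tmod2 and Ptgds, and the largest losses of Qk, Fnbp1, Rtn4, Wnk1 and Ypel2. Qk, which encodes an RNA-binding protein that splices and stabilises myelin transcripts, had 4580.2, 4729 and 4446 CPM in mock and 3477, 3331 and 3286 CPM in morphine libraries (log2 -0.45, SE 0.0439). Fnbp1, a membrane-bending adaptor of endocytosis, fell by 0.47 and Wnk1, a kinase that controls chloride cotransporters, by 0.28. Ptgds, the prostaglandin D2 synthase that oligodendrocytes and the meninges make, had 1514, 1333 and 1525 CPM in mock and 2174, 2313 and 2176 CPM in morphine libraries.

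On all 6 libraries, most tested transfer RNA rows of the mitochondrion were called lower and its tested messenger RNAs were not. These transfer RNA rows are 59 to 75 bases long. Whether their reads come from mature transfer RNAs or from longer transcripts was not tested. Of 22 mitochondrial transfer RNA rows in the table, 13 were tested and 10 of them were called lower and 0 higher, 76.9% against the 14.8% of all genes; this class was picked out after the values were seen. Their summed level was 87.2, 53.8 and 89.2 CPM in mock libraries 1, 2 and 3 and 43.7, 48.7 and 50.2 CPM in morphine libraries, so mock library 2 lay just above the morphine libraries. The largest falls were of mt-Tl2 (-1.88, SE 0.415), mt-Tf (-1.48, SE 0.24) and mt-Tt (-1.08, SE 0.254). Without mock library 1 the count called lower was 3, without mock library 3 it was 5, without morphine library 1 it was 6, and without mock library 2 it stayed at 10. Of 13 mitochondrial messenger RNAs in the table, 7 were tested. None of the 7 was called (log2 -0.23 to 0.04), but 5 of them were called lower without mock library 2. Of the ribosomal RNAs mt-Rnr1 was called higher by 0.14 (SE 0.0408) with overlapping groups, and lost that call without mock library 3 or without morphine libraries 1 or 2 (edgeR adjusted p = 0.144, 0.124 and 0.0899) and with DESeq2 (adjusted p = 0.116).

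**Figure D4:**
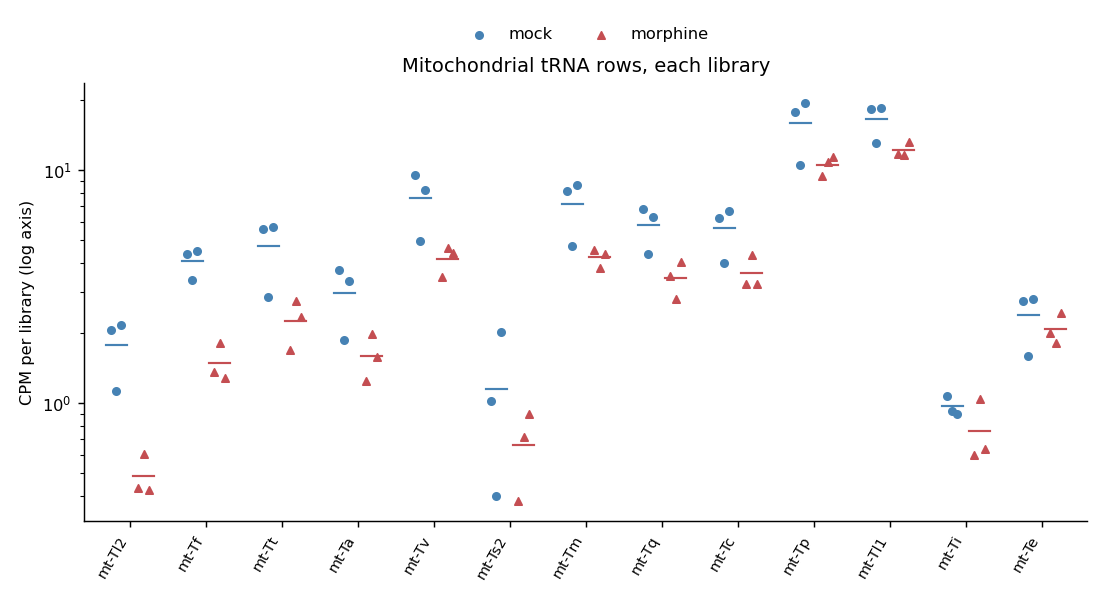
CPM in each library, on a log axis, of the 13 mitochondrial transfer RNA rows tested, ordered by log2 fold change; mock libraries are blue circles, morphine libraries red triangles and short lines the group means. In most rows mock library 2 is the lowest mock point and lies close to the morphine libraries.

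Genes that rose strongly often lay next to each other. Of 350 genes called at least 2-fold higher with an annotated position, 117 (33.4%) had an adjacent tested gene that was also at least 2-fold higher, compared with 4.28% of all 15528 annotated genes tested. Among the genes at least 2-fold lower, 19 of 153 (12.4%) had a neighbour of the same kind, compared with 1.94% of all. The 70 pairs of neighbouring rises include 20 that overlap in position, where the reads of 1 gene may be counted for the other; 91 of the 350 genes (26.0%) were in pairs with a gap between the genes. This pattern was found after the values were seen and its cause was not tested. The longest run was of 5 genes on chromosome 7: Itgad (an integrin chain of leukocytes), Cox6a2, 9130023H24Rik, Armc5 and Tgfb1i1, with log2 fold changes of 2.38, 2.93, 2.10, 2.12 and 2.62. Itgad had 7.74, 6.17 and 9.8 CPM in mock and 39.7, 42.1 and 42.9 CPM in morphine libraries, and Tgfb1i1, a focal adhesion protein also called Hic-5, had 4.1, 3.25 and 3.02 and 20.8, 22.2 and 21.5 CPM. Cox6a2 lies within Itgad on the other strand, and 9130023H24Rik and Armc5 overlap on opposite strands, so within each of these 2 pairs the reads cannot be told apart here. The next tested genes on either side did not rise: Itgax (log2 -1.04) and Slc5a2 (log2 0.13) were not called and Itgam, an integrin chain of microglia, fell by 0.78. Other runs of raised genes were Zfp365, Rtkn2 and Arid5b, and Hdgfrp2, Plin4 and Plin5. The 4 adjacent genes Mrgpra6, Mrgpra9, Mrgprx3-ps and Mrgpra1 belong to 1 family of receptor genes, Mrgprx3-ps being named as a pseudogene. Their reads may be shared, which was not tested.

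**Figure D5:**
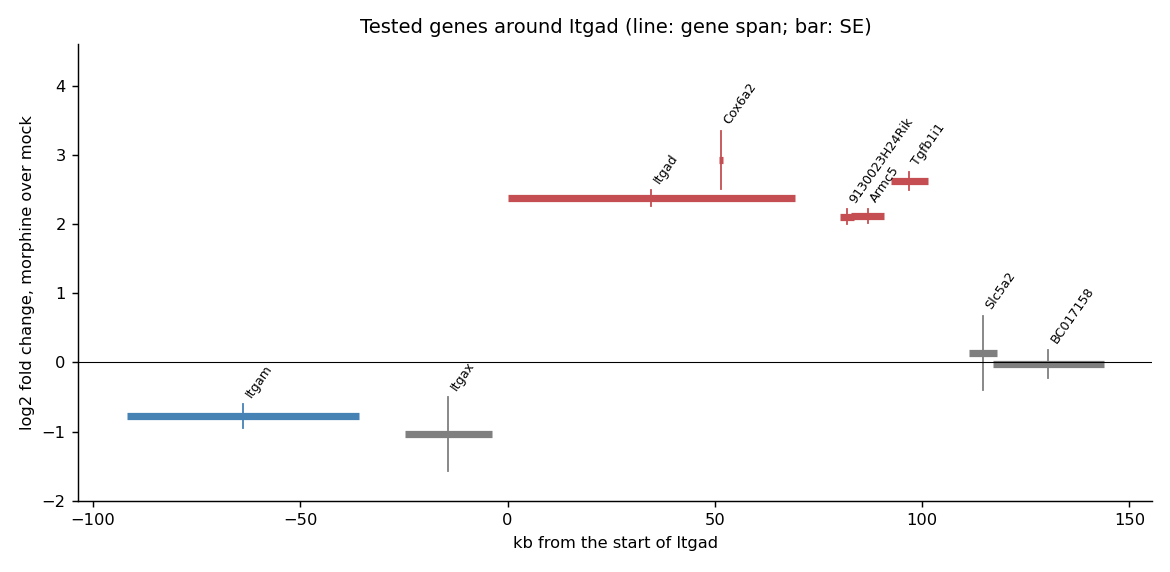
Log2 fold change, morphine over mock, of each tested gene around Itgad against distance in kb from the start of Itgad; thick lines span the genes and thin bars are standard errors. The 5 red genes, called higher, lie between 2.10 and 2.93, Itgam (blue) was called lower, and the grey genes on both sides were not called.

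Markers of other cell types were called in part, beside the vessel markers and the neuronal gene Tubb3 given above. For comparison, 14.8% of all genes tested were called. Of 12 microglial markers 2 were lower (Cx3cr1, by 0.67, and P2ry12, which lost its call without mock library 1) and 0 higher. Of 12 astrocyte markers 4 were higher (Aldh1l1, Agt, Gjb6 and Fgfr3, by 0.50 to 0.92; Fgfr3 lost its call without morphine library 3 and Gjb6 with DESeq2, at an adjusted p of 0.236) and 1 lower (Slc1a3, which lost its call without mock library 1 or morphine library 2); Gjb6 is also on the glucocorticoid list. Of 8 markers of newly formed oligodendrocytes 2 were higher, Fyn (0.97) and Itpr2 (0.96), and 1 lower, Tcf7l2 (2 lower without mock library 2), and of the 6 tested markers of their precursors 0 were called (1 lower without mock library 1). Of 7 tested markers of perivascular macrophages and blood leukocytes 3 were lower, Cd209b, S100a9 and Ngp, each at under 2 CPM in every library and by at least 2-fold, and 0 higher (1 higher without mock library 2); none of the 3 was tested with the filter of 1 CPM; S100a9 lost its call without mock libraries 1 or 3, without morphine libraries 2 or 3 and with DESeq2. The mock libraries had summed levels of 7.05 to 11.3 CPM for this list, and the morphine libraries 7.53 to 8.04 CPM. Of 9 mural cell markers 1 was higher, Myh11, by 0.73 (none without mock library 1, 3 without mock library 2), and of 7 tested ependymal and choroid plexus markers 1 was lower, Kl, by 0.90 (2 lower without mock library 2 or morphine library 2). Choroid plexus RNA varied between libraries: Ttr, its most abundant marker, had 611, 583 and 647 CPM in mock and 244, 685 and 369.6 CPM in morphine libraries, and was among the 10 genes of at least 5 CPM with the largest spread within groups, which also include Hif3a, Mt2 and Pax6. The part of these cells' RNA in the results above was not tested.

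The authors' deposited table gives adjusted p-values under 0.05 to 1793 of the genes tested here. Of these, 1789 were also called here, 537 further genes were called here alone, and 4 were called in the authors' deposited table alone.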

How the data were processed

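The authors deposited 1 table of unnormalized counts for the sorted cells, with a row for each gene symbol and no molecular identifiers, so standard errors cover counting and replicate error only. Its columns give group and number, and the labels name the table for the sorted samples; libraries are called by those numbers. The submitters' processing notes list STAR 2.4.2a, HTSeq, Trimmomatic 0.36, DESeq and DESeq2 and the build mm10 for the series, without the step each tool served. Rows that name no gene took 69.47% to 74.34% of a library's reads and entered neither library sizes nor tests. Another deposited table holds the authors' log2 fold changes and their p-values for the same comparison. The Drop-seq files of the series were not used here.

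The counts of 33006 gene rows were filtered with edgeR's filterByExpr, which kept 15759, scaled by TMM and tested with edgeR 4.0.16 (glmQLFit and glmQLFTest, R 4.3.3) on the 6 libraries without covariates. The Benjamini-Hochberg adjustment ran over all 15759 genes, with calls at an adjusted p under 0.05, and the SE is the log2 fold change divided by the square root of the test's F. CPM values use TMM-scaled library sizes. The test script was checked on simulated data. DESeq2 1.42.0, limma 3.58.1 (voom), other scalings and filters, a replicate block and leaving out each library were the alternatives; the authors' p-values were used only for the overlap of calls.

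Gene lists, families and the rules for naming genes were chosen with earlier results of these data known. Genes were named when among the 15 largest rises or falls (mean of at least 5 CPM, called with any 1 library left out), the 10 largest gains or losses of CPM, the 4 largest calls in each direction of a list, the 10 of largest spread within groups, or the cell type markers; others were chosen after their values were seen, and some genes that the rules name are not reported here. Positions are from GENCODE on GRCm38, counted from 1, and promoters from RefSeq on GRCm38.p6.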

Additional observations from a re-analysis of the deposited data

How the results depend on the processing

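The main counts of 1275 genes higher, 1051 lower, 354 at least 2-fold higher and 153 at least 2-fold lower moved by less than 1.5 times under every alternative run. With 1 library left out they ranged from 1023 to 1412, 742 to 1287, 318 to 418 and 123 to 183. DESeq2 gave 1145 higher and 706 lower (1843 of its 1851 calls shared), limma voom 1285 and 1067, and no scaling beyond library size 1159 and 1184. A replicate block, which treats libraries of the same number as paired, gave 1231 higher and 971 lower. Same-numbered libraries did not deviate together (correlations of deviations from the group means of -0.0273, -0.0714 and 0.0122). With 3 libraries a group, this does not settle whether same-numbered libraries were prepared together. Of the called genes named in the report, 199 were called in every setting that tested them. The other 15 lost the call in at least 1 setting, and no direction reversed. Settings that did not test a gene, such as the filter of 1 CPM for Cd209b and Ngp, were passed over. Few libraries (3 a group), rows without a gene taking most reads, and unknown strand, dose and time limit these results.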
